A study of Mus musculus with 2 samples.

Results

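The machinery that fuses secretory vesicles with the plasma membrane was followed through 85 genes. These are all genes in the count files whose symbols belong to the synaptotagmins, synaptotagmin-like proteins, syntaxins and their binding proteins, VAMP proteins, complexins, Rims, Unc13, Cadps, Sv2 and Doc2 families, the genes Snap23, Snap25, Snap29, Snap47 and Snap91, the synapsins Syn1 to Syn3, Syp, Rph3a, Rph3al, Ptprn and Ptprn2. They are 85 of 37681 gene identifiers counted. Another gene of the rule, Vamp9, was not among the counted identifiers, and Vamp7 was not matched, so it is not analysed here. Pseudogenes account for 2 of the 85, Stxbp3-ps and Vamp7-ps.

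RNA was sequenced from 2 libraries of corpus epithelium, from the acid-producing body of the stomach, of C57BL/6 mice. All cells came from animals carrying the Hdc-CFP transgene, in which a cyan fluorescent protein reports Hdc, the gene of the histamine-making enzyme. The sorted library was made from Hdc-CFP-positive cells and the depleted library from corpus epithelial cells from which these had been removed. The age and number of animals, any pooling, and the regulatory sequence that drives the reporter are not stated in the sources used here.

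Each group held 1 library, so no spread between samples could be measured, no p-value is given, and each comparison is of these libraries and not of the cell populations in general. Counts in genes came to 10736538 for sorted and 50928524 for depleted cells. Levels are normalised CPM, read counts per library size after scaling by trimmed-mean (TMM) factors. A fold is the sorted over the depleted level unless its direction is stated, with a 95% interval for counting error in brackets. In the check of the sort, Hdc stood at 8750.2 CPM in sorted against 21.2 CPM in depleted cells (413-fold [388 to 441]). Summed over each marker list, enterochromaffin-like and endocrine cell genes came to 82718 against 233 CPM and tuft cell genes to 5.83 against 205 CPM. In the same way, parietal genes such as Atp4a stood at 1373 CPM in the sorted against 7789.9 CPM in the depleted library, chief cell genes such as Pgc at 16534 against 65945 CPM, surface mucous genes such as Gkn1 at 3442 against 147672 CPM, and leukocyte and macrophage genes at 12.1 against 1437 CPM. Pgc, at 15187 against 60505 CPM, made up most of the chief cell sum. Of the 4 chief cell genes found, 1 went the other way, Bhlha15 at 25.3 against 13.3 CPM. In bulk RNA, fewer cells of a type and less RNA per cell cannot be told apart.

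Vesicle fusion is driven by SNARE proteins. A VAMP on the vesicle zips together with a syntaxin and a SNAP protein on the target membrane, assisted by a Sec1/Munc18 protein. In neurons and endocrine cells, Unc13, Cadps and Rims proteins dock and prime vesicles, complexins clamp the SNARE bundle, and synaptotagmins sense the calcium that triggers release. Most cells carry related proteins for constitutive traffic and for fusion inside the cell. The histamine-storing enterochromaffin-like cells of the corpus release their granules on stimulation by gastrin, while the mucous, chief and parietal cells around them secrete or insert membrane by other routes.

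Most measured genes of calcium-regulated fusion were higher in the sorted cells, while most of their broadly expressed relatives were near the same level or lower there. A gene counted as measured with at least 10 counts in at least 1 library, and as higher or lower with a fold of at least 2 and an interval clear of 1. Of the 85 genes, 76 were measured, 42 were higher in the sorted library and 14 lower, where 21.9% of all 16682 measured genes were higher and 22.3% lower. Scaled by library totals alone, 45 were higher and 10 lower, beside 28.4% and 17.1% of all measured genes. Of the 76, 65 had at least 10 counts in both libraries, and of these 32 were higher and 13 lower. The matching share over all genes with 10 counts in both libraries was not computed. A further 10 reached 10 counts in the sorted library alone, so their direction followed from the filter. Only 1, Stx11, reached 10 counts in the depleted library alone. That library was deeper, so the filter did not fix the direction of Stx11. The median log2 fold of the measured genes was 1.66, against -0.05 over all measured genes.

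A list of 28 regulated fusion genes had 21 measured members, of which 18 were higher and 0 lower. Of the 18, some, such as Cplx1, Rph3a, Syt2 and Syt6, were measured through the sorted library alone. The median log2 fold of the list was 5.36, or 5.02 with a count of 0 set to the floor of 3 counts. A list of other genes of plasma membrane fusion, most of them broadly expressed and called so here, had 14 members in the files. It also held Stx11 and Unc13d, known from blood cells, and Stx19, found in epithelia, which were among the lower genes. All 14 were measured, 2 were higher and 6 lower, and the median log2 fold was -0.70. With library totals the same list had 2 higher and 3 lower. A list of 9 genes of fusion inside the cell had 2 higher and 1 lower, with a median of 0.32, and 3 higher and 0 lower with library totals. The lists were drawn up with earlier results of these data known.

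**Figure D1:**
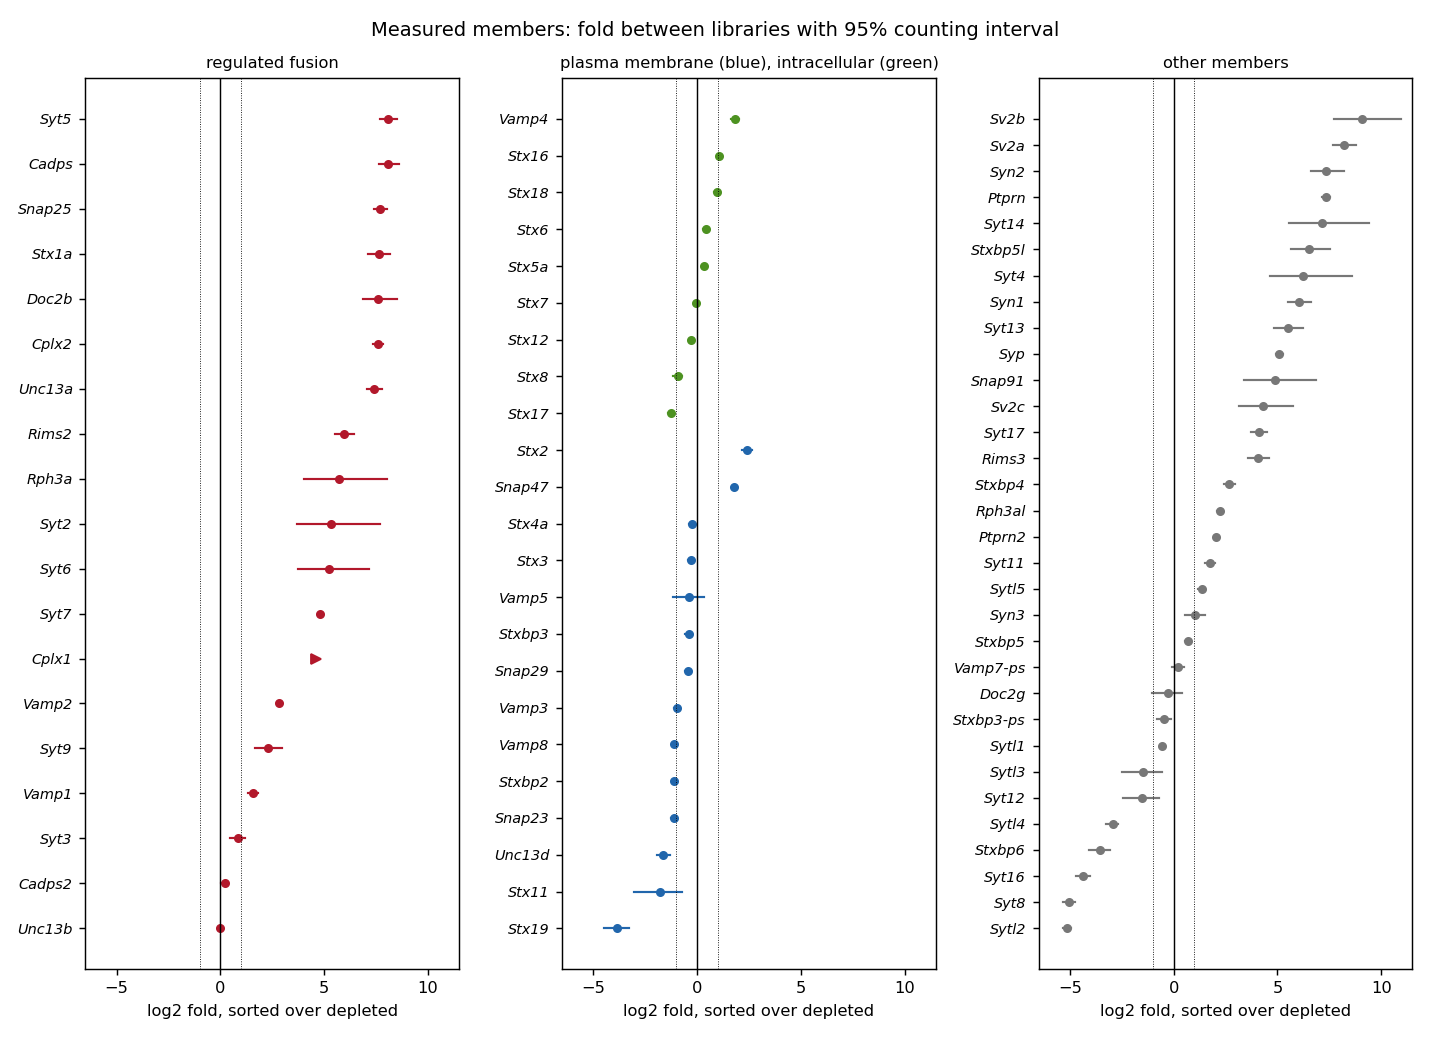
Log2 fold (sorted over depleted library) of 74 measured genes, with 95% counting intervals, in 3 panels by class. Dotted lines mark 2-fold. The arrowhead for Cplx1, which had no count in the depleted library, marks 24.6-fold, its ratio with that count set to 3. Most regulated fusion genes lie right of the 2-fold line, and the blue plasma membrane genes lie around or left of 0 apart from Stx2 and Snap47.

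Among the SNAREs of the plasma membrane, Snap25, the SNAP protein of neurons and endocrine cells, stood at 415 CPM in sorted against 1.98 CPM in depleted cells (209-fold [169.7 to 261]). Its broadly expressed relative Snap23 stood at 33.8 against 72.4 CPM (2.15-fold lower [1.94 to 2.38]). The ranking of these genes therefore turned over between the libraries. Snap29, which acts on several internal membranes, stood at 39.3 against 52.7 CPM, a fold of 0.746 [0.675 to 0.824] that did not reach 2-fold. Snap47 stood at 86.9 against 24.9 CPM and was 3.49-fold higher [3.21 to 3.80], and 11.6% of its exon bases overlap Jmjd4 on the opposite strand.

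Stx1a, the syntaxin that pairs with Snap25, stood at 131 CPM in sorted against 0.668 CPM in depleted cells (196-fold [137 to 292]). Per kilobase of exon, Stx1a stood at 49.2 CPM in the sorted library. Stx2 stood at 31.2 against 5.88 CPM (5.31-fold [4.52 to 6.23]), the one broadly expressed syntaxin of the plasma membrane that was higher. Stx3, a syntaxin of apical membranes, stood at 39.5 against 48.7 CPM and Stx4a, of basolateral membranes, at 48.5 against 57.2 CPM. Neither reached 2-fold, and for both the direction turned when libraries were scaled by their totals.

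Lower in the sorted library were Stx19, a syntaxin without a membrane anchor found in epithelia, and Stx11, a syntaxin of blood cells. Stx19 stood at 2.05 CPM in sorted against 29.5 CPM in depleted cells (14.4-fold lower [9.69 to 22.3]). Stx11 had 8 counts against 100 (3.39-fold lower [1.66 to 8.07]).

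The vesicle SNAREs differed less between the libraries. Vamp2, the main VAMP of synaptic vesicles and endocrine granules, stood at 222 CPM in sorted against 31.8 CPM in depleted cells (6.96-fold [6.53 to 7.43]). Vamp1, its relative, stood at 20.3 against 6.86 CPM (2.96-fold [2.49 to 3.51]). Both folds were below those of Snap25 and Stx1a, with intervals that do not overlap theirs. Vamp8, a VAMP of exocrine granules and late endosomes, stood at 67.2 against 142 CPM (2.12-fold lower [1.97 to 2.28]). Vamp3, which serves recycling endosomes, stood at 55.0 against 109 CPM, a fold of 0.504 [0.465 to 0.547] at the edge of the 2-fold limit. Vamp4, of the trans-Golgi network, was 3.57-fold higher [3.14 to 4.06], and Vamp5, on 19 and 91 counts, had a fold of 0.770 [0.443 to 1.27] that was not distinguishable from 1. The pseudogene Vamp7-ps had 137 and 435 counts, a fold of 1.16 [0.951 to 1.41].

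Most syntaxins of internal membranes did not reach 2-fold. Of 8, Stx16 of the trans-Golgi network was higher (176 against 84.2 CPM, 2.09-fold [1.98 to 2.21]) and Stx17, which fuses autophagosomes with lysosomes, was lower (43.1 against 103 CPM, 2.39-fold lower [2.18 to 2.62]). The other 6, Stx5a, Stx6, Stx7, Stx8, Stx12 and Stx18, had folds between 0.528 and 1.97. The exons of Stx18 overlap Gm42858 and Nsg1 on the opposite strand over 32.3% of their bases. Calls near the limit moved with the scaling: Stx18 became higher with library totals (2.54-fold), Stx8 became lower with DESeq2 size factors (fold 0.496), Stx16 and Vamp3 changed theirs with DESeq2 size factors, and Stx17, Snap23 and Vamp8 lost theirs with library totals.

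Sec1/Munc18 proteins hold and chaperone syntaxins. Stxbp2, which serves epithelial and blood cells, stood at 111 against 237 CPM (2.13-fold lower [2.01 to 2.25], a call lost with library totals). Stxbp3 stood at 34.1 against 45.2 CPM and did not reach 2-fold. It shares 9.27% of its 50-base words with other genes, chiefly the pseudogene Stxbp3-ps, which had 85 and 428 counts.

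The ratio of a regulated gene to a paralog of the broadly expressed list, taken within each library and then compared, needs no scaling factor. It needs no gene length either. In all 10 such pairs the ratio was higher in the sorted library with an interval above 1, from 3-fold to 524-fold. Snap25 to Snap23 was 449-fold higher [354 to 567] and Unc13a to Unc13d 524-fold [373 to 718]. Stx1a to Stx4a was 231-fold [159.9 to 351] and Vamp2 to Vamp8 14.8-fold higher [13.4 to 16.3]. The smallest was Unc13b to Unc13d at 3-fold [2.41 to 3.78]. Both the highest and the lowest pair hold Unc13d, a gene known from blood cell granules and not a broadly expressed one. Per kilobase, Snap25 outweighed Snap23 7.77 times in the sorted library, and Snap23 outweighed Snap25 57.8 times in the depleted library.

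**Figure D2:**
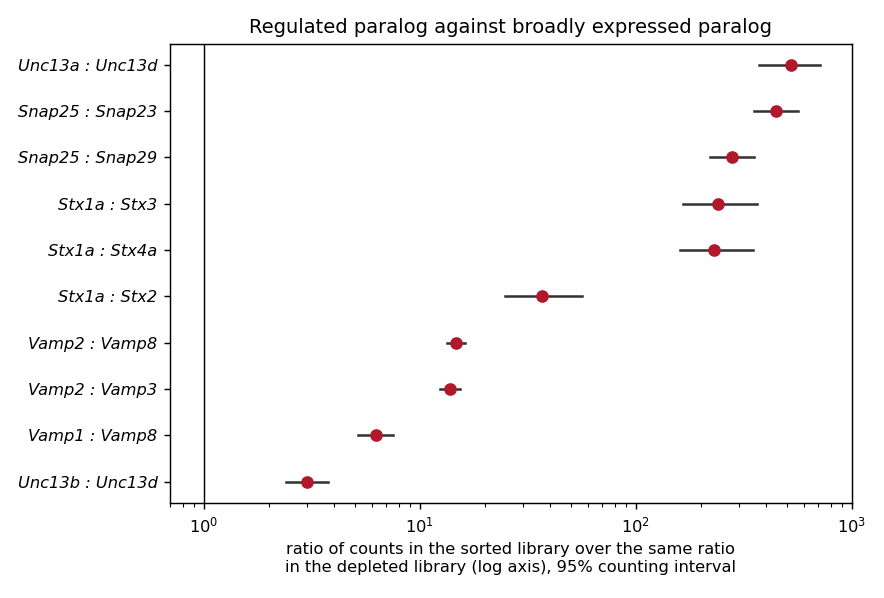
Pairs of a regulated gene and a gene of the broadly expressed list, 10 in all. Points show the ratio of their counts in the sorted library over that in the depleted library (log axis). Bars are exact 95% counting intervals. All points lie right of 1, with VAMP pairs between 6.27 and 14.8 and the Snap25 pairs at 280.4 and 449. The pair of Unc13b and Unc13d lies lowest and that of Unc13a and Unc13d highest.

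Promoter sequences are shown for genes called higher and genes called lower, so that the letters before their starts can be set side by side. RefSeq windows on GRCm38.p6, from 250 bases before to 50 after the start, were matched by symbol for 64 of the 85 genes. The 250 bases before the start are printed 5′ to 3′ for Stx1a, Unc13a and Cplx2, which were higher in the sorted library, and for Snap23 and Stxbp2, which were lower. Capitals mark GC boxes (GGGCGG or its complement CCGCCC) and the E-boxes CAGCTG and CAGATG, none of which overlap here.
Stx1a (chr5:135023232-135023481, plus strand): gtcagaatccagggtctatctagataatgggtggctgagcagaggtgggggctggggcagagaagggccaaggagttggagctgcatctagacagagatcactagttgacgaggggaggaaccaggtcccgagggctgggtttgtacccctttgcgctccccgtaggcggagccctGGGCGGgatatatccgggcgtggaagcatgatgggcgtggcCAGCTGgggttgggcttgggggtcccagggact
Unc13a (chr8:71671758-71672007, minus strand): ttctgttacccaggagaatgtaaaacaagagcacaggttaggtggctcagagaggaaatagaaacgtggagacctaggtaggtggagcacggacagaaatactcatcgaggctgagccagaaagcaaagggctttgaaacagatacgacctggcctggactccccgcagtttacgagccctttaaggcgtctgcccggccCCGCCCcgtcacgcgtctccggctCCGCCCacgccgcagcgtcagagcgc
Cplx2 (chr13:54302306-54302555, plus strand): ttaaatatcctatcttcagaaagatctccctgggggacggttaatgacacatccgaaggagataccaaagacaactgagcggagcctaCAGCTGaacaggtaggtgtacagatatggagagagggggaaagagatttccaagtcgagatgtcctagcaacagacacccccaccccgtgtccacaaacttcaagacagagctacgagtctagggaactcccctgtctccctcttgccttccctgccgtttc
Snap23 (chr2:120567421-120567670, plus strand): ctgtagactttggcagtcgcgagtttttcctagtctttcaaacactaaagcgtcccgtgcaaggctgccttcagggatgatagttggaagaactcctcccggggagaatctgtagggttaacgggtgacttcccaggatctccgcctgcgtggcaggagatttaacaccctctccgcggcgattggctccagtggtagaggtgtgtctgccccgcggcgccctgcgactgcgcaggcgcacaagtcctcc
Stxbp2 (chr8:3630859-3631108, plus strand): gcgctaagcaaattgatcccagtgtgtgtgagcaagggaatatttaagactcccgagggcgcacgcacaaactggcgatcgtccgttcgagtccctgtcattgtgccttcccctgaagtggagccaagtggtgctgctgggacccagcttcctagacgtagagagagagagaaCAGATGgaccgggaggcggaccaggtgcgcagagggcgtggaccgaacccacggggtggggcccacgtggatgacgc

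The Stx1a stretch held 1 GC box and 1 E-box, the Unc13a stretch 2 GC boxes, the Cplx2 stretch 1 E-box, the Stxbp2 stretch 1 E-box and the Snap23 stretch none of these letters. The same stretches of Cadps, a higher gene, and Vamp8, a lower gene, were also read and are not printed. They held none of these letters either. Over the whole windows on both strands, a GC box was found in 26 of 30 higher genes (86.7%) and 15 of 28 genes that were lower or neither (53.6%), against 65.4% of 11475 measured genes with a window. CAGCTG was found in 26.7% of the higher genes, 28.6% of the genes that were lower or neither and 18.4% of measured genes. CAGATG was found in 16.7%, 14.3% and 14.1% of these groups. The cAMP response element TGACGTCA was found in 1 of the 30 higher genes, Syn1, and in 3.42% of measured genes. A match is a description of these letters and not a binding site.

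Among priming factors, members of the Unc13 and Cadps families differed from each other between the libraries. Unc13a, the main priming factor of synapses, stood at 263 CPM in sorted against 1.54 CPM in depleted cells (171-fold [135 to 220.1]). Unc13b, which also primes vesicles, stood at 148 against 151 CPM (fold 0.980 [0.930 to 1.03]), an interval that includes 1, and its direction turned with library totals. Unc13d, which primes the granules of cytotoxic blood cells, stood at 7.64 against 23.4 CPM and was 3.06-fold lower [2.48 to 3.83]. Unc13c, of the cerebellum, had no count in either library.

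Cadps, the priming factor of dense-core granules, stood at 223 CPM in sorted against 0.824 CPM in depleted cells (271-fold [196 to 386]). Cadps2 stood at 39.2 against 34.2 CPM, a fold of 1.15 [1.03 to 1.27]. The ratio of Cadps to Cadps2 was thus 236-fold higher in the sorted library [167 to 345].

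Rims proteins tether vesicles near calcium channels. Rims2 stood at 65 against 1.05 CPM (62.1-fold [46.2 to 85.2]) and Rims3 at 16.4 against 0.980 CPM (16.8-fold [12 to 23.8]). Rims1 (6 counts against 1) and Rims4 (6 against 3) were under the limit of 10 counts. Without that limit their ratios would be 22.1 [2.68 to 1018] and 7.38 [1.58 to 45.6].

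Complexins bind the assembled SNARE bundle. Cplx2 stood at 623 CPM in sorted against 3.21 CPM in depleted cells (194-fold [165 to 231]) and was 97th of all genes by count in the sorted library. Cplx1, the other common brain complexin, had 20 counts against 0, at 1.64 CPM. Its ratio was 24.6 with the count of 0 set to the floor of 3 counts, and its interval began at 18.2. Cplx3 and Cplx4, complexins of the retina, each had 1 count in the depleted library and none in the sorted one.

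The calcium sensors were led by Syt5 and Syt7. Syt7, a slow sensor with high affinity for calcium, stood at 618 CPM in sorted against 22 CPM in depleted cells (28.1-fold [26.3 to 30.1]). Syt5, a sensor found on dense-core granules, stood at 321 against 1.18 CPM (272-fold [207 to 364]). Syt1, the fast sensor of most synapses, was not measured, with 3 counts against 1, a ratio whose interval includes 1 (0.888 to 581). Syt2, its relative, had 33 counts against 3, a ratio of 40.6 [12.7 to 207]. Syt9 had 48 counts against 36 (4.92-fold [3.13 to 7.80]), Syt6 40 against 4 (36.9-fold [13.3 to 142]), and Syt10 had no count in either library. Syt3 stood at 8.54 against 4.77 CPM, with a fold of 1.79 [1.4 to 2.28] that did not reach 2-fold but did with library totals.

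Synaptotagmins known for weak or no calcium binding moved both ways. Syt13 stood at 21.1 CPM in sorted against 0.468 CPM in depleted cells (45.1-fold [28.9 to 74.2]), Syt17 at 26.9 against 1.58 CPM (17-fold [13.1 to 22.3]) and Syt11 at 23.1 against 6.77 CPM (3.41-fold [2.89 to 4.02]). Syt14 had 114 counts against 3, a ratio of 140.1 [46.8 to 689.5], and Syt4 62 against 3, a ratio of 76.2 [24.9 to 379.6]. For Syt4, 14.5% of the exon bases overlap Gm26658 on the opposite strand. In the other direction, Syt8 stood at 9.12 CPM in sorted against 299 CPM in depleted cells (32.8-fold lower [27.2 to 39.9]), Syt16 at 6.49 against 133 CPM (20.5-fold lower [16.4 to 25.9]) and Syt12 at 1.15 against 3.30 CPM (2.87-fold lower [1.66 to 5.37]). Syt12 overlaps A930001C03Rik over 17.2% of its exon bases. Syt15 had 0 counts against 5.

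Shares within the family put these genes on one scale, as counts per kilobase of exon. In the sorted library Syt5 made up 55.0% [54.1 to 56.0] of synaptotagmin counts per kilobase and Syt7 33.7% [32.9 to 34.5], and each of the other 15 made up at most 2.29%. In the depleted library Syt8 made up 87.7% [87.4 to 88.0] and Syt16 8.06% [7.84 to 8.29], while Syt5 made up 0.276%. In the sorted library, neighbours in order after Syt5 and Syt7 were Syt13 (2.29% [2.03 to 2.58]), Syt17 (2.10% [1.89 to 2.34]), then Syt8 and Syt11 (1.81% [1.61 to 2.03]), whose intervals overlap from each to the next.

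**Figure D3:**
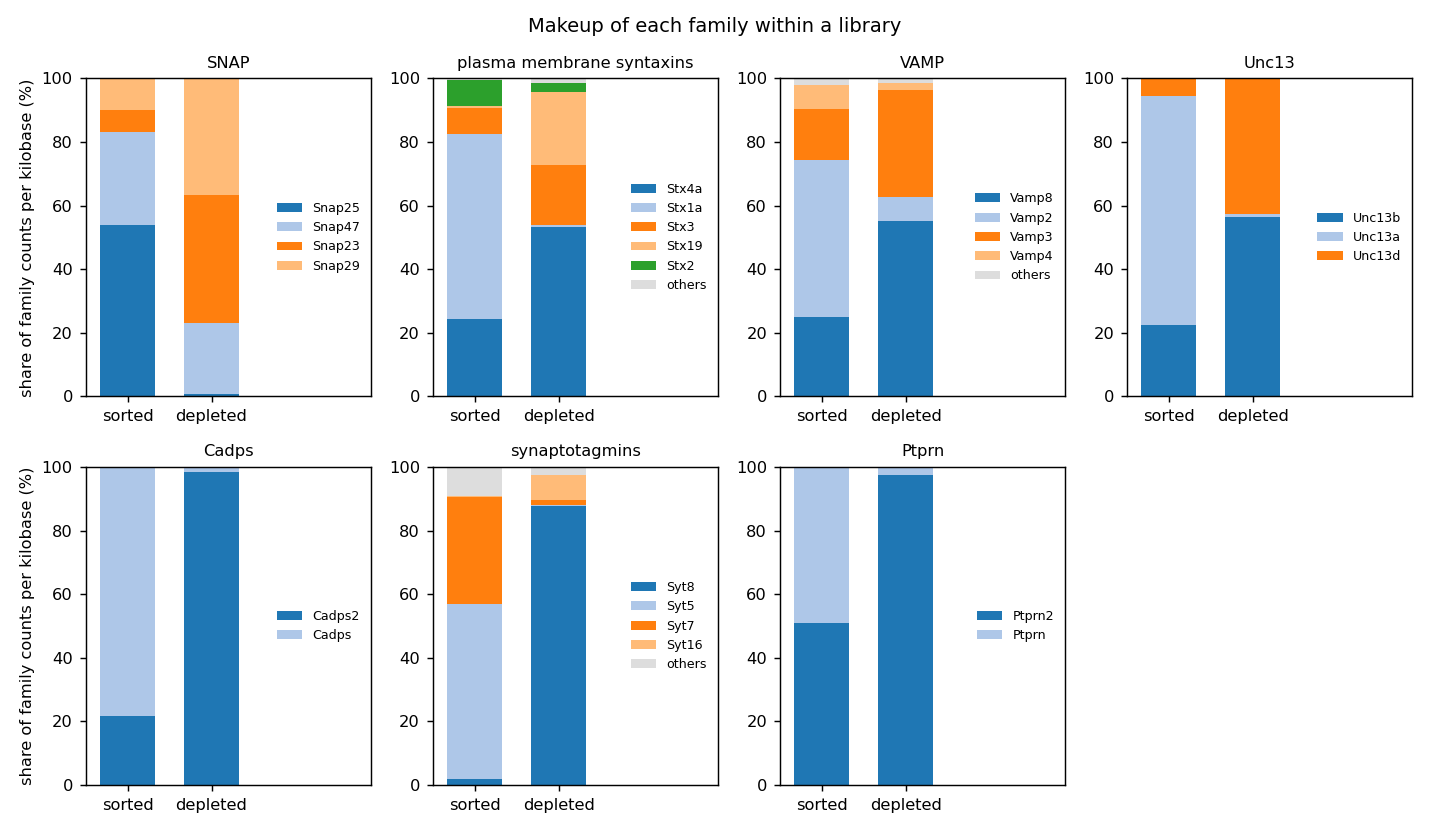
Share of each gene in its family's counts per kilobase of exon (%), in the sorted and the depleted library, for 7 families; genes under 3% in both libraries are pooled as others. Snap25, Stx1a, Vamp2, Unc13a, Cadps and Syt5 lead in the sorted library, and Snap23, Stx4a, Vamp8, Unc13b, Cadps2 and Syt8 in the depleted one.

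The same measure showed a change of the leading gene in 10 of 15 families. Snap25 made up 54.0% of the SNAP family in sorted against 0.697% in depleted cells, where Snap23 led with 40.3%. Stx1a made up 58.1% of the plasma membrane syntaxins against 0.553%, with Stx4a leading the depleted library at 53.4%. Vamp2 made up 49.5% of the VAMP genes against 7.49%, and Vamp8 24.8% against 55.2%. Unc13a made up 71.9% of its family against 1.04%. Cplx2, Sv2a, Ptprn2, Rph3al and Syn1 led their families in both libraries, and with the longest transcript in place of merged exons the synapsins had other leaders. In the depleted library the shares of Rims3 (51.2% [41.1 to 61.2]) and Rims2 (42% [32.5 to 52]) overlapped, and with the longest transcript Rims2 led in both libraries, so the change of leader in that family was lost.

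Doc2 and rabphilin proteins are further calcium or Rab3 binding partners of secretory vesicles. Doc2b stood at 60.8 CPM in sorted against 0.312 CPM in depleted cells (195-fold [115 to 358]). Doc2a, its relative in brain, had 1 count against 0, and Doc2g, of which 63.5% of exon bases overlap Gm49405, had 22 against 99 with a fold of 0.819 [0.491 to 1.31]. Rph3al, a Rab3 and Rab27 partner of endocrine and exocrine cells, stood at 126 against 27.2 CPM (4.63-fold [4.29 to 4.99]). Rph3a, the neuronal rabphilin, had 42 counts against 3, a ratio of 51.6 [16.5 to 260.4], at 3.45 CPM.

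Synaptotagmin-like proteins link Rab27 on granules to the plasma membrane, and they went mostly the other way. Sytl2, which docks mucous granules in surface cells of the stomach, stood at 18.6 CPM in sorted against 648 CPM in depleted cells (34.9-fold lower [30.6 to 40]). Sytl4, the granuphilin gene, known for docking insulin granules, stood at 8.29 against 63.9 CPM (7.70-fold lower [6.31 to 9.49]). Sytl3, on 11 and 111 counts, was 2.74-fold lower [1.47 to 5.64], and 21.1% of its 50-base words occur in another gene. Sytl1 did not reach 2-fold, with a fold of 0.681 [0.627 to 0.740]. Sytl5 alone of the family was higher (39.5 against 15.4 CPM, 2.57-fold [2.28 to 2.89]). Within the family, Sytl1 and Sytl5 made up 52.1% and 40.5% of counts per kilobase in the sorted library, and Sytl2 47.2% in the depleted library. With the longest transcript as length, the share of Sytl2 there was 72.1%.

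Syntaxin-binding proteins outside the Sec1/Munc18 group include inhibitors of SNARE assembly. Stxbp5l, a tomosyn, stood at 22.2 CPM in sorted against 0.245 CPM in depleted cells (90.5-fold [49.8 to 183]). Stxbp5, the other tomosyn, stood at 79.8 against 50 CPM, with a fold of 1.60 [1.48 to 1.72]. Stxbp6, known as amisyn, which occupies the SNARE bundle without a membrane anchor, stood at 2.79 against 33.0 CPM (11.8-fold lower [8.42 to 17.1]). Stxbp4, a partner of Stx4a in insulin-regulated traffic, stood at 27.8 against 4.34 CPM (6.39-fold [5.34 to 7.66]).

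The Sv2 genes encode membrane proteins of synaptic vesicles, and all 3 were higher in the sorted cells, Sv2c at a low level. Sv2b and Sv2c reached 10 counts in the sorted library alone, so their direction followed from the filter. Sv2a, a vesicle glycoprotein of neurons and endocrine cells, stood at 177 CPM in sorted against 0.601 CPM in depleted cells (294-fold [202 to 447]). Sv2b stood at 48.5 against 0.0891 CPM, with 591 counts against 4 (545-fold [212 to 2006]), and Sv2c had 38 counts against 7 (20-fold [8.83 to 53.1]). The folds of Sv2a and Sv2b did not differ beyond counting error, with a ratio of Sv2a to Sv2b of 0.540 [0.137 to 1.56] between libraries. Their intervals, and those of Syt14 and Cplx1, overlapped the interval of Hdc, while the other 72 measured members had intervals that ended below it. The overlapping intervals were wide, on 27 depleted counts for Sv2a, 4 for Sv2b, 3 for Syt14 and 0 for Cplx1. How many of all measured genes overlap the interval of Hdc was not counted.

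Syp, the synaptophysin gene, stood at 243 CPM in sorted against 7.10 CPM in depleted cells (34.2-fold [30.5 to 38.5]), and 16.8% of its exon bases overlap Gm14703 on the opposite strand. Synapsins tether vesicles to actin: Syn1 stood at 45.2 against 0.690 CPM (65.4-fold [45.6 to 97.2]) and Syn2 at 54.4 against 0.334 CPM (163-fold [98.0 to 292]). Syn3 stood at 5.01 against 2.43 CPM, 2.06-fold [1.48 to 2.85], a call lost with DESeq2 size factors, and overlaps Timp3 over 14.1% of its exon bases. Snap91, a clathrin assembly protein of synapses, had 32 counts against 4 (29.5-fold [10.5 to 115]).

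The granule membrane proteins Ptprn and Ptprn2, receptor phosphatase relatives of dense-core granules that lack the usual activity, had the highest levels per kilobase of all 85 genes in the sorted library, 202 CPM for Ptprn2 and 194 CPM for Ptprn. Not divided by length, Ptprn2 stood at 1735 CPM and Ptprn at 823 CPM there, 23rd and 60th of all genes by count. In the depleted library Ptprn2 stood at 415 CPM and Ptprn at 5.17 CPM, so the folds were 4.18 [4.10 to 4.26] and 159 [139.8 to 182]. The ratio of Ptprn to Ptprn2 was 38.1-fold higher in the sorted library [33.4 to 43.6]. Per kilobase Ptprn and Ptprn2 made up 49.0% and 51.0% of their pair in the sorted library, and Ptprn2 97.5% in the depleted library. With the longest transcript as length, the share of Ptprn2 was 64% in the sorted library and 98.5% in the depleted library. Of 16682 measured genes, the 500 with the most counts held 9 of the 76 measured members in the sorted library. In the depleted library they held 3 (Ptprn2, Syt8 and Sytl2).

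**Figure D4:**
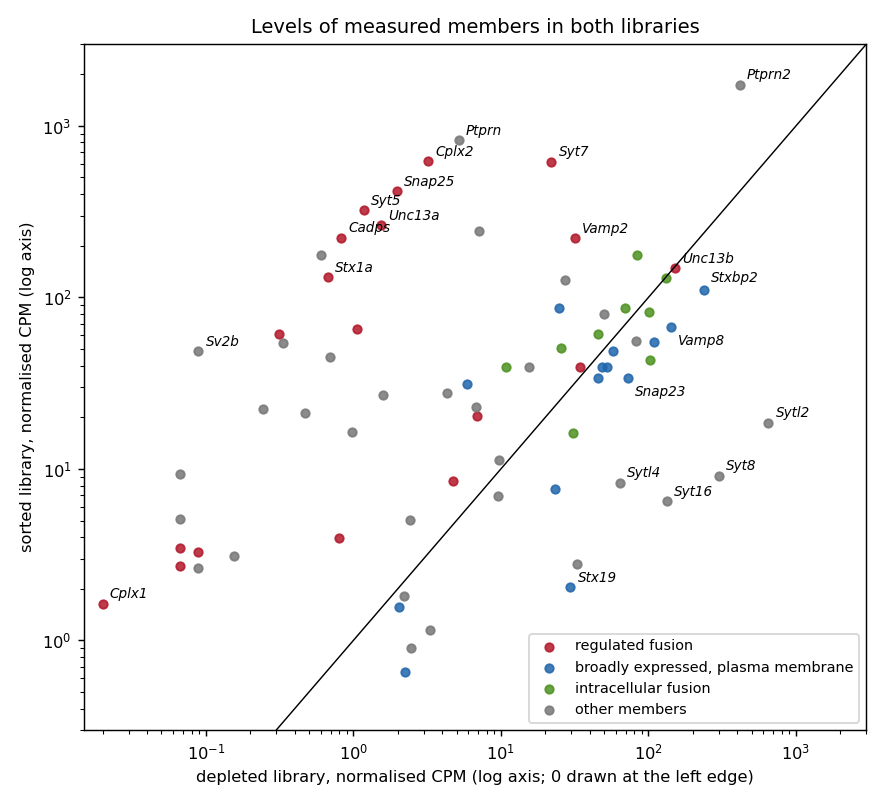
Normalised CPM of 74 measured genes in the depleted library (horizontal) and in the sorted library (vertical), both on log axes, coloured by class; the line marks equal levels. Ptprn, Cplx2, Snap25 and Syt5 lie far above the line, blue points gather at or below it apart from Stx2 and Snap47, and Sytl2, Syt8 and Syt16 lie far below it.

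Other genes of the pathway were described by lists, to be read beside 21.9% of all measured genes higher and 22.3% lower. Scaffold genes of the synaptic active zone had 10 measured members, 8 higher and 0 lower, and a median log2 fold of 3.88. Some of the 8 reached 10 counts in the sorted library alone, so their direction followed from the filter. Rimbp2, which links Rims proteins to calcium channels, stood at 461 against 2.16 CPM (214-fold [175 to 264]), Pclo at 168 against 4.41 CPM (38.0-fold [32.8 to 44.2]) and Bsn at 141 against 10.1 CPM (13.9-fold [12.5 to 15.4]). Ppfia1, the broadly expressed liprin, stood at 129 against 101 CPM.

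The genes that take SNARE bundles apart and the core SNAREs of the early secretory pathway stayed near the same level. Of 16 measured, 2 were higher and 0 lower, with a median of 0.31. Nsf, the ATPase that disassembles SNAREs, stood at 120.1 against 64.7 CPM, with a fold of 1.86 [1.74 to 1.98] that did not reach 2-fold, and Napa, its adaptor, at 117 against 92.7 CPM. The 2 higher genes, named after their values were seen, were Napb, the adaptor of brain (4.76-fold [3.87 to 5.85]), and Sec22c (2.41-fold [2.13 to 2.74]). Of 10 exocyst genes, which tether constitutive vesicles, 1 was higher and 1 lower, with a median of 0.09. Of 10 further Sec1/Munc18 and tether genes, such as Vps33a and Vps41 of the lysosomal route, 1 was higher and 0 lower, with a median of 0.54.

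Markers of other cell types that could bring fusion genes were read in the same libraries. Among 10 neuron markers, 4 were measured and all 4 were higher in sorted cells, beside 21.9% of all measured genes. Their median log2 fold was 4.32. Elavl4, on 300 and 4 counts, and Uchl1 reached 10 counts in the sorted library alone, so their direction followed from the filter. Elavl4 was 277-fold higher [107 to 1022], Nefm 7.65-fold [4.75 to 12.6] and Tubb3 3.46-fold [1.59 to 7.47], and Uchl1, on 40 and 2 counts, had a ratio of 73.8 [19.1 to 629.9]. Neurons carry many of the regulated fusion genes. Gap43, Nefl and Prph had no count in either library, and the list summed to 34.0 CPM in sorted against 1.22 CPM in depleted cells, most of it from Elavl4 at 24.6 CPM. Of 4 glia markers Sox10 had no count in either, and the list summed to 9.28 against 1.31 CPM. Mast cell markers summed to 164 against 45.7 CPM and none of the 6 was at 0. Of these 6, 5 were higher in sorted cells and 0 lower, beside 21.9% and 22.3% of all measured genes. Pancreatic acinar markers summed to 1538 against 3.90 CPM, mostly from Cel (1172 CPM) and Prss2 (286 CPM), with Cpa1 at 0 in both libraries and Amy2a5 and Pnlip at 2 and 3 counts in the sorted library. Leukocyte and macrophage markers summed to 12.1 CPM in sorted against 1437 CPM in depleted cells, where Stx11 was 3.39-fold and Unc13d 3.06-fold lower in sorted cells. Surface mucous markers summed to 3442 against 147672 CPM, and Sytl2 was 34.9-fold lower. With 2 libraries, a shared direction does not tie a gene to a cell type. Of the leukocyte and macrophage markers 6 of 6 were lower in sorted cells, beside 22.3% of all measured genes. Some of these, such as Csf1r and Adgre1, reached 10 counts in the depleted library alone. The part of neurons, mast, acinar, leukocyte and mucous cells in these results was not tested.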

How the data were processed

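The submitters' processing notes name TopHat2 2.0.07, HTSeq and the build mm9. For the strand setting and annotation release, the sources used here say nothing. Each deposited file holds 1 library's read counts by Ensembl identifier, not normalised, with 5 summary rows left out of all totals (reads outside genes were 9.20% of the sorted and 4.91% of the depleted alignments, ambiguous reads 1.45% and 1.11%, non-unique alignments 24.2% and 34.3%). Without a strand setting, overlapping antisense genes cannot be told apart.

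Symbols came from GENCODE M21, which named 32642 of 37681 identifiers. M21 is on GRCm38, so no coordinates of counted genes are given. Exon lengths, exon overlaps and shared 50-base words also came from M21. TMM factors from edgeR 4.0.16 (R 4.3.3), over genes with at least 10 counts in 1 library, were 1.13 (sorted) and 0.882 (depleted). Folds carry exact Clopper-Pearson intervals of the split of counts, pairs exact conditional intervals, and shares logit intervals. All of these cover counting error only. A count of 0 allows up to 3 counts, 0.246 CPM for sorted and 0.0668 CPM for depleted cells. Log2 folds had 0.5 counts added in proportion to library size. The scripts were tested on simulated data.

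With 1 library per group, nothing says how far replicates would vary. Members, lists and pairs were chosen with earlier results of these data known. Some results are not reported here. Measured members could be named, and of other lists up to 4 genes by CPM. Alternatives were other scalings (DESeq2 1.42.0 among them), filters and call limits, and 2 added after seeing the data: TMM over all genes and the longest transcript as length.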

Additional observations from a re-analysis of the deposited data

How the results depend on the processing

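No paired analysis was possible because each group holds 1 library, and for the same reason no library could be left out. Relative to the values reported, scaling by library totals shifted every log2 fold by 0.36, the total without the 20 most abundant genes by 0.21, DESeq2 size factors by -0.09 and TMM over all genes (added after seeing the data) by -0.11, and upper-quartile factors by 0.00. Of 375 recomputed folds of 75 genes, 285 stayed within their counting interval and 90 moved beyond it. No called gene turned its direction under these 5 scalings. The 6 genes that turned were not called (Unc13b, Stx7, Stx4a, Doc2g, Stx12 and Stx3), and 11 genes changed their call. Of 30 leading shares, 26 kept their leading gene with the longest transcript.

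In the order library totals, total without the 20 most abundant genes, DESeq2 size factors and TMM over all genes, the median log2 fold was 2.03, 1.88, 1.57 and 1.55 for all measured members, 5.71, 5.56, 5.28 and 5.26 for regulated fusion, -0.34, -0.49, -0.79 and -0.82 for plasma membrane fusion, and 0.69, 0.54, 0.23 and 0.21 for intracellular fusion. Upper-quartile factors gave -0.71 for plasma membrane fusion. Without a filter on low counts the medians of all members and of regulated fusion were 1.77 and 4.88, and with at least 50 counts 1.01 and 5.93. Fewer genes were tested there: 68 members reached 50 counts.

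The number of plasma membrane genes lower in the sorted library was 3 with library totals and 3 without the 20 most abundant genes. Intracellular genes were 1 higher and 2 lower with DESeq2 size factors or TMM over all genes, and 0 were lower with library totals. A limit of 4-fold with an interval beyond 2-fold left 6 members lower, 1 plasma membrane gene higher and 1 lower, and 0 intracellular genes in either direction. By that limit 13.6% of all measured genes were higher and 11.6% lower. Depth limits the 9 members under 10 counts. Without the filter, 44 members and 19 regulated fusion genes were higher.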

Other observations

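Genes that recycle vesicle membrane and other proteins with C2 domains, the calcium-binding fold of synaptotagmins, were read beside a background of 21.9% of all measured genes higher and 22.3% lower. Of 15 measured genes of vesicle endocytosis, 6 were higher in the sorted library, 1 lower and 8 neither, and the median log2 fold was 0.30. Some of the 6 reached 10 counts in the sorted library alone, so their direction followed from the filter. Dnm1, the dynamin of neurons, stood at 169 CPM in sorted against 1.80 CPM in depleted cells (93.8-fold [75.1 to 119]), while Dnm2, the dynamin of most cells, stood at 237 against 263 CPM. Picalm, the broadly expressed relative of Snap91, stood at 149 against 241 CPM and Itsn2 at 126 against 103 CPM, and neither reached 2-fold.

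Of 9 measured ferlins and other C2 domain genes, 4 were higher and 3 lower, with a median of 0.65. The lower genes were Fer1l4 (20.5 against 567 CPM), Fer1l6 (4.85 against 207 CPM) and Myof (3.70 against 107 CPM), which were 27.6-fold, 42.8-fold and 29-fold lower. Baiap3, named after its value was seen, a relative of Unc13 in dense-core granule traffic, stood at 99.0 against 1.92 CPM (51.7-fold higher [41.5 to 65.1]). Of 11 measured genes of other vesicle membrane proteins, 2 were higher, 3 lower and 6 neither, with a median of 0.11. The 2 higher genes reached 10 counts in the sorted library alone, so their direction followed from the filter. Sypl and Syngr2, broadly expressed relatives of synaptophysin and synaptogyrin, stood at 111 against 293 CPM and 139.6 against 284 CPM, and Svop, a relative of Sv2 named after its value was seen, had 352 counts against 3, a ratio of 433 [147 to 2108].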
